A study of Emberiza bruniceps with 4 samples.

Results

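The genes described here are the opioid peptide precursors and opioid receptors of the hypothalamus of the red-headed bunting (Emberiza bruniceps), a migratory songbird. They were chosen by protein name: assembled transcripts (contigs) of the bunting had been matched to proteins of the collared flycatcher, and every name was kept that starts with proenkephalin, contains "-type opioid receptor" or contains nociceptin. The rule found 5 genes on 13 contigs, among 11943 protein names with counts. They are proenkephalin-A on 3 contigs, proenkephalin-B on 2, the kappa-type opioid receptor on 5, the nociceptin receptor on 2 and the mu-type opioid receptor on 1.

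The birds had been caught in the wild, and RNA came from hypothalami of 4 groups: intact birds in spring (the spring intact group), intact birds in autumn, castrated birds in spring and castrated birds in autumn. Each group is a lone library, so no spread within a group can be measured. How many birds made up a library, their age and sex and the time since castration are not stated in the labels.

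Opioid peptides are cut from large precursor proteins. Proenkephalin-A gives the enkephalins, which act mainly on delta and mu receptors, and proenkephalin-B (prodynorphin) gives the dynorphins, which prefer the kappa receptor. All opioid receptors couple to inhibitory G proteins, which lower cyclic AMP, open potassium channels and close calcium channels, and the nociceptin receptor is a relative that binds nociceptin rather than the classical opioids. In the mammalian hypothalamus dynorphin is known as a brake on the release of gonadotropin-releasing hormone, and its neurons carry sex steroid receptors. In mammals the same precursors are also abundant in the striatum, where dynorphin marks neurons with the D1 dopamine receptor and enkephalin those with the D2 receptor.

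The libraries held 16840270 to 26213011 estimated counts, of which 6759993 to 10918845 fell on matched contigs. Where 4 values are listed they follow library order: spring intact, then autumn intact, then spring castrated and last autumn castrated. Levels are given in CPM, matched counts scaled to a common library total with TMM factors, and a log2 ratio was taken after adding 0.5 CPM. A gene was called when its log2 ratio reached 1 in size, which is 2-fold. Bracketed ranges are exact 95% intervals from the binomial split of the counts, and cover counting error only. For ratios they leave out the added 0.5 CPM, so a ratio that rests on few counts can lie near an end of its range. Of the 5 genes, 4 reached a mean of 1 CPM, as did 10559 names in all. The mu-type receptor did not, and is described by its counts.

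The tissue content of the libraries differed with gonadal state, and this stands beside every castration result. Of 14 tested marker genes of striatum and pallium, 11 were lower and 1 was higher by 2-fold or more after castration in each season, and their summed level was 2478, 2708, 468 and 501 CPM in library order. None of the 14 was at 0 in any library. The 9 tested pituitary markers summed to 6.16 and 0.810 CPM in the intact and to 841 and 344 CPM in the castrated libraries. Of them 4 were at 0 in the spring and 6 in the autumn intact library, prolactin and somatotropin among those in autumn. In the castrated libraries the glycoprotein hormone alpha chain held 521 and 32.5 CPM of the sums, and the follitropin beta subunit 148 and 0.594 CPM. POU1F1 held 4.79 CPM of the spring intact sum and was not 2-fold apart in spring (log2 ratio 0.56). The 9 tested midbrain and hindbrain markers summed to 11.1 and 11.6 CPM against 590 and 378 CPM, with 5 and 3 at 0 in the intact libraries, HOXA3, HOXD3 and EN2 among them in both. Of 16 hypothalamic markers 11 had counts and summed to 269, 258, 177 and 275 CPM. Pro-opiomelanocortin, which the pituitary also makes, held 2.47, 0.135, 89.3 and 196 CPM of this, and without it the sums were 267, 258, 87.7 and 78.9 CPM. Of the 9 hypothalamic markers tested, 4 were 2-fold lower (neuropeptide Y, LHX6, LHX8 and NKX2-1) and 1 was higher (pro-opiomelanocortin) after castration in each season. The lower sums rest largely on these lower markers: neuropeptide Y held 117, 141, 13.3 and 27.1 CPM and LHX8 held 53.1, 38.8, 0.429 and 1.58 CPM. SIM1, orexin, agouti-related protein and the gonadotropin-releasing hormone precursor were not 2-fold apart one way in both seasons. In library order SIM1 stood at 12.9, 6.21, 9.73 and 6.53 CPM and agouti-related protein at 4.25, 18.1, 22.2 and 12.1 CPM. The gonadotropin-releasing hormone precursor stood at 1.51, 5.67, 2.43 and 0.198 CPM. The hypothalamic markers thus did not move as a set, and whether the castrated libraries held less hypothalamus was not tested. NKX2-1, a factor of the basal hypothalamus and ventral forebrain, stood at 22.3 and 17.8 CPM in the intact and at 2.29 and 1.29 CPM in the castrated libraries, while orexin, a peptide of lateral hypothalamic neurons, stood at 22.3, 13.0, 36.2 and 28.5 CPM. How far these differences in tissue set the opioid ratios was not tested, and a smaller number of expressing cells cannot be told apart from less RNA per cell.

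The first comparison asks how the opioid genes of castrated birds differed from those of intact birds. Both precursors and the kappa-type receptor were lower in the castrated libraries in each season, proenkephalin-B by more than 10-fold, and the nociceptin receptor was not. Of the 4 genes tested, 3 were at least 2-fold lower in spring, where 14.6% of all names tested were, and the same 3 in autumn, where 15.2% were. None of the 4 was 2-fold higher in either season, against 8.61% of names in spring and 12.3% in autumn. In both seasons together 9.60% of names were 2-fold lower and 4.51% were 2-fold higher.

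Proenkephalin-B, the dynorphin precursor, had 1338 and 857 counts in intact birds, spring before autumn, and 83 and 93 in castrated birds. In library order these are 183, 116, 11.9 and 9.21 CPM. Both castrated libraries lay far below both intact ones, an order without overlap that 33.8% of names tested showed. The log2 ratio of castrated to intact was -3.89 (-4.29 to -3.63) in spring and -3.58 (-3.98 to -3.34) in autumn, so the level was 14.8-fold lower in spring. As a description, 0.379% of names tested, 40 of 10559, were at least as far down in both seasons.

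Proenkephalin-A, the enkephalin precursor, changed less. In library order it had 5397, 4941, 2228 and 3171 counts, or 739, 667, 319 and 314 CPM. The castrated libraries were again the lower pair, and within each gonadal state the seasons were close. Its log2 ratios were -1.21 (-1.28 to -1.14) in spring and -1.09 (-1.15 to -1.02) in autumn, just past the 2-fold line.

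The kappa-type receptor, the main receptor of dynorphin, had 425, 353, 102 and 165 counts, or 58.2, 47.7, 14.6 and 16.3 CPM. Again neither castrated library reached the lower of the intact ones. Its log2 ratio was -1.96 in spring (-2.32 to -1.68) and -1.52 in autumn (-1.82 to -1.27), between the values of the precursors. The receptor and its ligand precursor were thus both lower in the castrated birds, the precursor by the larger factor.

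The nociceptin receptor had 624, 373, 607 and 702 counts in library order, or 85.5, 50.4, 86.9 and 69.5 CPM. Intact and castrated libraries overlapped. Its log2 ratio was 0.02 (-0.14 to 0.19) in spring and 0.46 (0.28 to 0.65) in autumn, where the castrated library was the higher one.

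**Figure D1:**
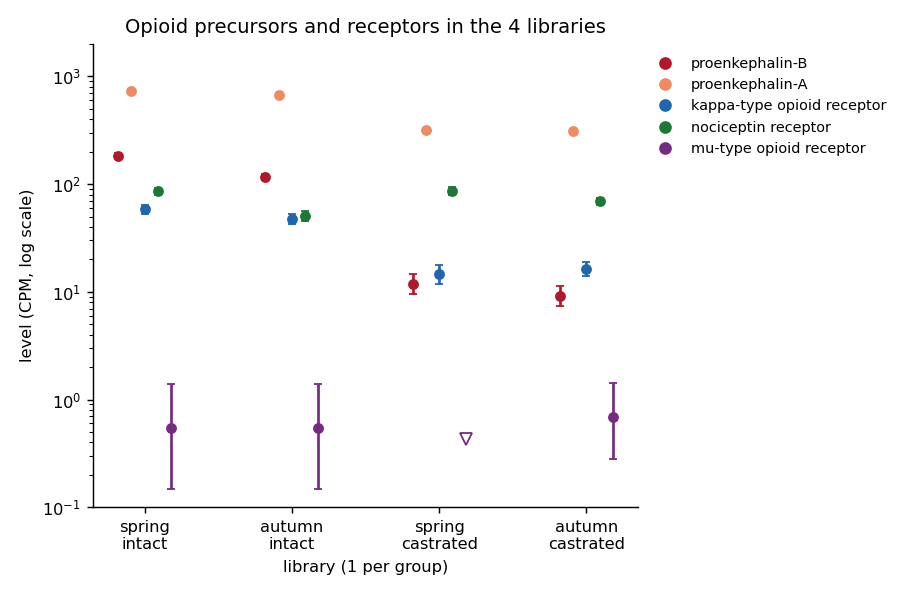
Level of each opioid gene in CPM (log scale) in the 4 libraries, 1 per group; points are CPM, bars are exact 95% Poisson intervals for counting error, and the open triangle is the limit of 3 counts for the mu-type receptor, which had 0 counts in the spring castrated library. Proenkephalin-B falls from 183 and 116 CPM in the intact to 11.9 and 9.21 CPM in the castrated libraries, while the nociceptin receptor stays between 50.4 and 86.9 CPM.

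The only test that the design allows across libraries is an additive fit of season and gonadal state over all names. It takes the departure from additivity as its error, with 1 residual degree of freedom for each name, and moderates this error by pooling over all names. Its p-values rest on that pooling and do not measure the spread among birds. In this fit (edgeR's quasi-likelihood test, Benjamini-Hochberg adjustment over 10559 names) 22.4% of names differed between castrated and intact libraries at an adjusted p below 0.05, and 14.3% were lower. Proenkephalin-B was lower in castrated birds by a log2 fold change of -3.80 (adjusted p = 0.000618 by edgeR), the kappa-type receptor by -1.77 (adjusted p = 0.00814 by edgeR) and proenkephalin-A by -1.15 (adjusted p = 0.00617 by edgeR), each lower in 2 of 2 seasons. The nociceptin receptor did not pass (log2 fold change 0.24, adjusted p = 0.408 by edgeR).

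Whether castration went with the same change in both seasons cannot be tested with 1 library per group. The spring ratio minus the autumn ratio was -0.31 for proenkephalin-B, -0.13 for proenkephalin-A, -0.44 for the kappa-type receptor and -0.44 for the nociceptin receptor, on the log2 scale. Counting error alone gives approximate 95% ranges of -0.75 to 0.13, -0.22 to -0.03, -0.85 to -0.03 and -0.68 to -0.19 for these differences. These differences depended on the processing: that of proenkephalin-A was 0.08 with libraries scaled by their totals, that of proenkephalin-B was 0.15 on the authors' TPM, and that of the nociceptin receptor was -0.08 on its most abundant contig.

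The second comparison asks how the genes differed between spring and autumn libraries. None of the 4 tested was 2-fold apart. Among all names 2.60% were 2-fold higher and 4.39% lower in spring in intact birds, and 2.51% and 5.42% in castrated ones. In the same direction in intact and castrated birds alike 0.881% of names were. Proenkephalin-B was higher in spring among intact birds by a log2 ratio of 0.66 (0.54 to 0.79), and the ratio among castrated birds was 0.35 (-0.08 to 0.81), whose range includes 0. Summed over its contigs, the nociceptin receptor was higher in spring whether intact, by 0.76 (0.58 to 0.95), or castrated, by 0.32 (0.16 to 0.48). In castrated birds its 2 contigs went opposite ways. The 2810-base contig stood at 0.79 (0.61 to 0.98) and the 2059-base contig at -1.18 (-1.59 to -0.84). A ratio above 0 in both states was found for 29.1% of names tested.

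The seasonal ratios of the other genes were smaller. For proenkephalin-A the ratio was 0.15 (0.09 to 0.20) with gonads intact and 0.02 (-0.06 to 0.10) without. The kappa-type receptor stood at 0.29 (0.08 to 0.50) and -0.16 (-0.53 to 0.20). In the additive fit 0 of 10559 names differed between seasons at an adjusted p below 0.05 by edgeR, and the smallest adjusted p was 0.561. At an unadjusted p below 0.05 in edgeR 537 names did, a share near 0.05. The error of this fit is the departure from additivity, so neither count shows that the seasons did not differ. By the same test proenkephalin-B (log2 fold change 0.54) and the nociceptin receptor (0.54) each had an adjusted p of 0.873 in edgeR, and proenkephalin-A (0.09) and the kappa-type receptor (0.07) had adjusted p of 0.935 and 0.979.

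**Figure D2:**
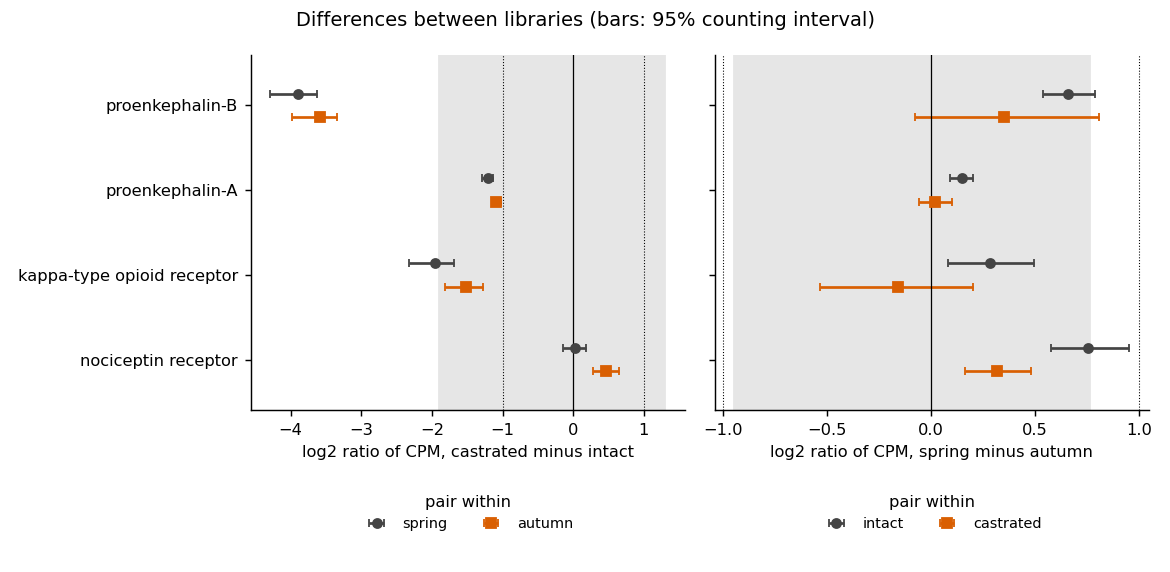
Log2 ratios of CPM for the 4 tested genes, castrated minus intact (left) and spring minus autumn (right), with exact 95% intervals for counting error. Dotted lines mark 2-fold. The grey band runs from the higher 5th percentile to the lower 95th percentile of all names tested in the 2 pairs of a panel. Proenkephalin-B lies at -3.89 and -3.58, outside the band, while no spring minus autumn ratio reaches 2-fold.

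Single contigs of a gene give separate looks at the same difference, though kallisto shares reads among similar contigs and they come from the same libraries. Proenkephalin-B was covered by a contig of 447 bases and another of 225 bases. The longer matched 128 residues of the flycatcher protein, and 88.2% of the residues not masked in either sequence were identical. The shorter matched 44 residues, 10 of them masked in the flycatcher protein, with 94.1% identity over the rest. Where it differs from the flycatcher protein or that protein is masked, the contig encodes the opioid core tetrapeptide that begins enkephalins and dynorphins. In TPM, a length-corrected share computed by the authors' tool, the longer contig stood at 219, 124, 13.3 and 9.68 in library order, and the shorter at 227, 194, 17.8 and 10.2. Both contigs thus placed the castrated libraries far below the intact ones, with log2 ratios of CPM of -3.95 and -3.41 in spring and -3.44 and -3.78 in autumn for the longer and the shorter. The seasonal difference in intact birds was 0.78 (0.65 to 0.93) on the longer and 0.19 (-0.09 to 0.47) on the shorter contig.

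Proenkephalin-A was carried by a contig of 2922 bases, which held 98.0 to 99.3% of its counts. The match of this contig covered 267 residues at 96.3% identity. At the threshold of the match, a 1229-base contig with 27 matched residues was just kept at an e-value of 1e-05 and stood at 7.96, 10.7, 1.43 and 1.58 CPM. A contig just outside, at 2.2e-05 and 47.9% identity, had 15.3, 1.05, 0 and 1.44 estimated counts.

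In the authors' length-corrected TPM, the order of the precursors differed between gonadal states. That order rests on the length correction of contigs of 447 bases for proenkephalin-B and 2922 bases for proenkephalin-A, and other length estimates were not tested. In CPM, which has no length correction, proenkephalin-A was the higher in all 4 libraries. Taking the contig with the most counts of each gene, proenkephalin-B exceeded proenkephalin-A in intact birds, with 219 against 77.8 TPM in spring and 124 against 68.6 TPM in autumn. In castrated birds proenkephalin-A was the higher, with 33.7 against 13.3 TPM in spring and 34.8 against 9.68 TPM in autumn. On the same TPM measure the receptors were lower than either precursor in all libraries. The kappa-type receptor stood between 0.565 and 2.02 TPM and the nociceptin receptor between 4.38 and 8.42 TPM. In CPM both receptors exceeded proenkephalin-B in the castrated libraries. The order of these receptors depended on the measure. Summed over all contigs, which counts a transcript more than once where contigs are pieces of it, the kappa-type receptor stood at 11.4, 9.21, 3.22 and 2.81 TPM. The nociceptin receptor then stood at 10.1, 6.01, 10.2 and 9.33 TPM, below the kappa-type receptor in intact and above it in castrated birds.

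For the kappa-type receptor the 5 contigs were 711 to 4669 bases long. All 5 were lower in the castrated libraries, with log2 ratios of CPM between -2.46 and -1.35 (spring) or -2.99 and -1.14 (autumn), though 2 of them had at most 3 counts in each castrated library. The 4669-base contig matched 307 residues with 1 substitution. The 1671-base contig aligned to the same length but lacked a run of 35 residues of the flycatcher receptor, and was otherwise also 1 substitution away. It took 19.1% (95% Clopper-Pearson interval 15.4 to 23.1) of the receptor's counts in the spring intact library, 12.7% (9.45 to 16.7) in autumn intact, 10.8% (5.51 to 18.5) in spring castrated and 15.2% (10.1 to 21.5) in autumn castrated. The intervals of these shares overlap in all pairs, which is not a test of their difference, and the split of reads between such contigs is itself an estimate.

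The nociceptin receptor was carried by contigs of 2810 and 2059 bases whose patterns differed. The 2810-base contig matched 368 residues with 2 substitutions. It stood at 73.5 and 75.8 CPM in the spring intact and castrated libraries and at 40.0 and 43.7 CPM in the autumn ones, so that spring exceeded autumn by 0.87 (0.67 to 1.09) with gonads and 0.79 (0.61 to 0.98) without. Castrated and intact libraries of a season differed by 0.04 (-0.13 to 0.22) and 0.13 (-0.09 to 0.34) on it. The 2059-base contig lacked a run of 22 residues and had 28 substitutions against the same protein, and its level was 11.9, 10.5, 11.1 and 25.8 CPM. Its share of the receptor's counts was 13.9% (11.3 to 16.9), 20.6% (16.6 to 25.1), 12.9% (10.3 to 15.8) and 37.2% (33.6 to 40.9) in that order. The 0.46 castration ratio of the whole gene in autumn thus sat on the 2059-base contig, whose own ratio there was 1.26 (0.94 to 1.70).

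**Figure D3:**
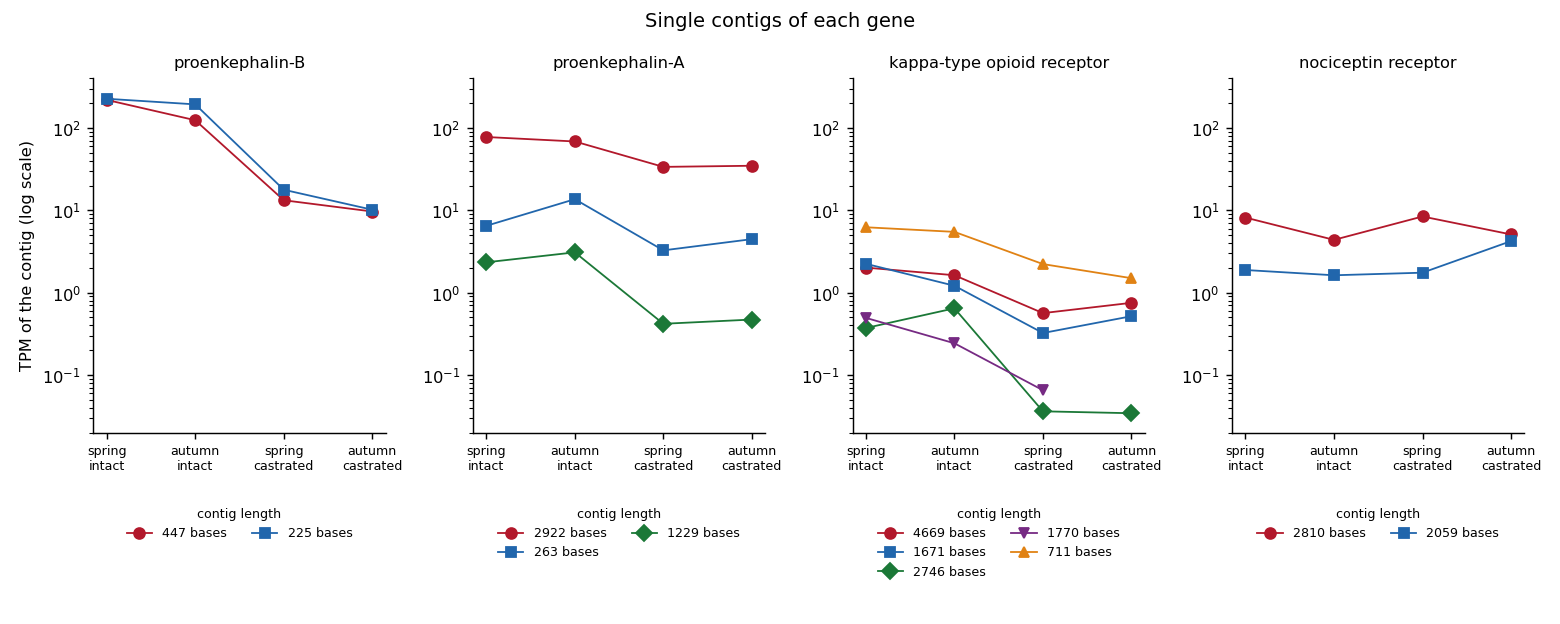
TPM (log scale) of each contig of the 4 tested genes in the 4 libraries, 1 per group; lines join the values of a contig and are labelled by its length, and a contig with 0 counts is not drawn. Both proenkephalin-B contigs drop from at least 124 TPM in the intact to at most 17.8 TPM in the castrated libraries, and the 2059-base contig of the nociceptin receptor is highest in the autumn castrated library, at 4.23 TPM.

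The mu-type receptor, the target of morphine and of enkephalins and beta-endorphin, had 4, 4, 0 and 7 counts in library order. The 0 allows up to 3 counts, or 0.429 CPM. All of these counts lay on a contig of 339 bases, 73 residues of which were identical to the flycatcher receptor. The contig shares its assembly gene label with contigs of 3930 and 1442 bases that have no kept protein match, and these held 1620, 999, 296 and 443 and 687, 539, 445 and 485 estimated counts in the same order. With so few matched counts a difference between libraries was not detectable at this depth, and they do not measure the whole transcript if the unmatched contigs belong to it, which was not tested.

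**Figure D4:**
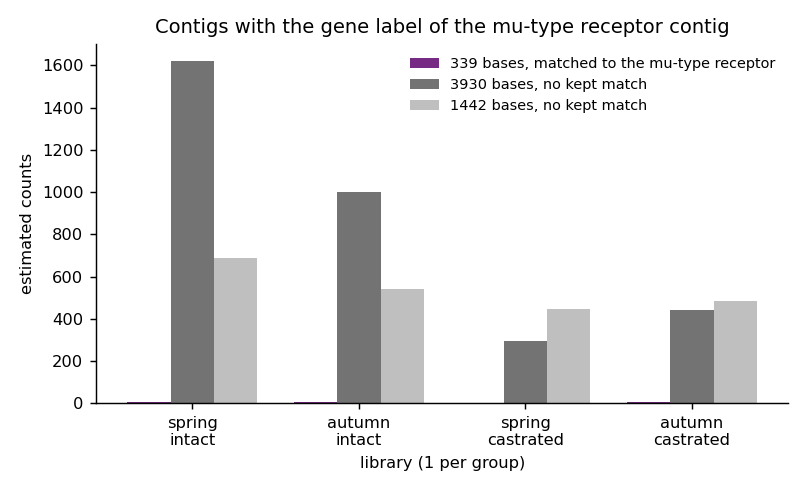
Estimated counts of the 3 contigs that share the gene label of the mu-type receptor match, in the 4 libraries, 1 per group. The matched 339-base contig holds at most 7 counts and is barely visible, whereas the unmatched 3930-base contig holds 296 to 1620.

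Genes with the most similar pattern were found by the root-mean-square difference of log2 CPM, centred on each gene's mean over the 4 libraries, among 8011 characterised names with a mean of at least 5 CPM. For proenkephalin-B these were synaptic vesicle glycoprotein 2C at 0.09, the prolactin receptor at 0.10, doublecortin at 0.12, mitogen-activated protein kinase kinase kinase 9 at 0.14 and the NMDA receptor subunit 2B at 0.14 on the log2 scale. The nearest, synaptic vesicle glycoprotein 2C, stood at 602, 416, 43.2 and 37.2 CPM. Castration ratios of the 5 lay between -4.22 and -3.64 in spring, and whether they share cells with proenkephalin-B was not tested. The other opioid genes had many more names within 0.25 than proenkephalin-B, as counted below. The nearest were transcription factor Dp-2, poly [ADP-ribose] polymerase 8, FERM, RhoGEF and pleckstrin domain-containing protein 2, protein cramped-like and matrix-remodeling-associated protein 5 for proenkephalin-A (0.02 to 0.04). For the kappa-type receptor they were DDB1- and CUL4-associated factor 12, the catalytic subunit alpha of phosphatidylinositol 4,5-bisphosphate 3-kinase, huntingtin, CUB and sushi domain-containing protein 3 and NEURL1B (0.04 to 0.05). For the nociceptin receptor they were P2Y purinoceptor 2, mitogen-activated protein kinase kinase kinase 3-like, LRRC8B, villin-1 and phosphatidylinositol 4-kinase alpha (0.04 to 0.07). Within 0.25 of the gene lay 20 names for proenkephalin-B, 255 for the kappa-type receptor, 682 for the nociceptin receptor and 764 for proenkephalin-A. Among the opioid genes themselves the kappa-type receptor and proenkephalin-A were nearest, at 0.31, and the nociceptin receptor and proenkephalin-B farthest, at 1.99.

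The enzymes that mature opioid peptides differed less than proenkephalin-B. Of 9 processing genes listed, 7 were tested, and 1 was 2-fold lower and 0 higher after castration in each season, with median log2 ratios of -0.40 in spring and -0.52 in autumn. Over all names 9.60% were lower and 4.51% higher in each season, and the medians were 0.01 and -0.01, so 1 of 7 is near the background. The lower one was 7B2, the chaperone of prohormone convertase 2, at 707 and 598 CPM in the intact and 344 and 281 CPM in the castrated libraries. Prohormone convertase 2 itself was at -0.42 and -0.63, convertase 1 at -0.40 and -0.52, the amidating enzyme PAM at -0.71 and -0.82, and cathepsin L1, a protease that also cuts proenkephalin, at 0.63 and 0.52. Of 9 tested genes of peptide breakdown, 1 was 2-fold lower and 0 higher in both seasons (medians 0.16 and 0.23), again near the 9.60% and 4.51% of all names. The lower one was neprilysin, which cleaves enkephalins at synapses, at 47.8 and 36.1 CPM in the intact and 4.58 and 6.63 CPM in the castrated libraries. Endothelin-converting enzyme 2-like (0.76 and 0.77), prolyl endopeptidase (0.66 and 0.69) and angiotensin-converting enzyme (0.64 and 0.54) were short of 2-fold.

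Downstream of the receptors, 7 of 19 tested signalling genes were lower by 2-fold or more after castration in each season and 0 higher, against 9.60% and 4.51% of all names, with medians of -0.72 and -1.12. Adenylate cyclase type 5, which opioid and dopamine receptors act on in the striatum, was at 56.3 and 59.9 CPM in the intact and 1.43 and 2.48 CPM in the castrated libraries. Adenylate cyclase type 1 had log2 ratios of -3.05 and -3.12, the inhibitory G protein subunit G(o) alpha -2.73 and -2.71, and RGS9, a striatal brake on G protein signalling that is also among the striatal markers, -2.30 and -1.94. Between spring and autumn 0 of the 19 were 2-fold apart one way in intact and castrated birds alike, as were 0 of the 7 processing and 0 of the 9 breakdown genes. With 0.881% of all names so, these counts are at the background.

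Of 10 tested partner peptides and receptors, 2 were lower and 2 higher by 2-fold or more after castration in each season (medians 0.50 and -0.77), where 9.60% and 4.51% of all names were. Pro-opiomelanocortin, the precursor of the opioid beta-endorphin and of pituitary corticotropin, had 18, 1, 624 and 1980 counts in library order. Its log2 ratios were 4.92 (4.51 to 5.94) and 8.27 (8.02 to 15.81), opposite to the other opioid precursors. The castrated libraries also hold the pituitary genes. Between them pro-opiomelanocortin was lower in spring (89.3 against 196 CPM), while the summed pituitary markers were higher in spring (841 against 344 CPM). Whether pituitary tissue was the source of its RNA was not tested. Neuropeptide Y was at -3.09 and -2.36, protachykinin-1, the substance P precursor, at -3.20 and -1.30, and somatostatin at 1.25 and 2.08.

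The opioid precursors can be set beside the markers of striatum and pallium, of which 11 of 14 tested were 2-fold lower in castrated libraries in each season. NEUROD6 was higher, at 2.77 in spring and 1.81 in autumn, and RARB was at -0.04 and 1.53. The dopamine receptor D1, with which dynorphin is paired in mammalian striatum, was at -4.04 (-4.30 to -3.84) and -4.86 (-5.11 to -4.68) against -3.89 and -3.58 for proenkephalin-B, so that the counting intervals overlapped in spring and not in autumn. The D2 receptor, the partner of enkephalin there, was at -2.06 and -2.23, and the adenosine receptor A2a of the same neurons at -0.16 and -0.04, against -1.21 and -1.09 for proenkephalin-A. PPP1R1B, shared by both kinds of striatal neuron, was at -7.10 and -7.43. The median of the 14 tested markers was -4.32 in spring and -4.14 in autumn.

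**Figure D5:**
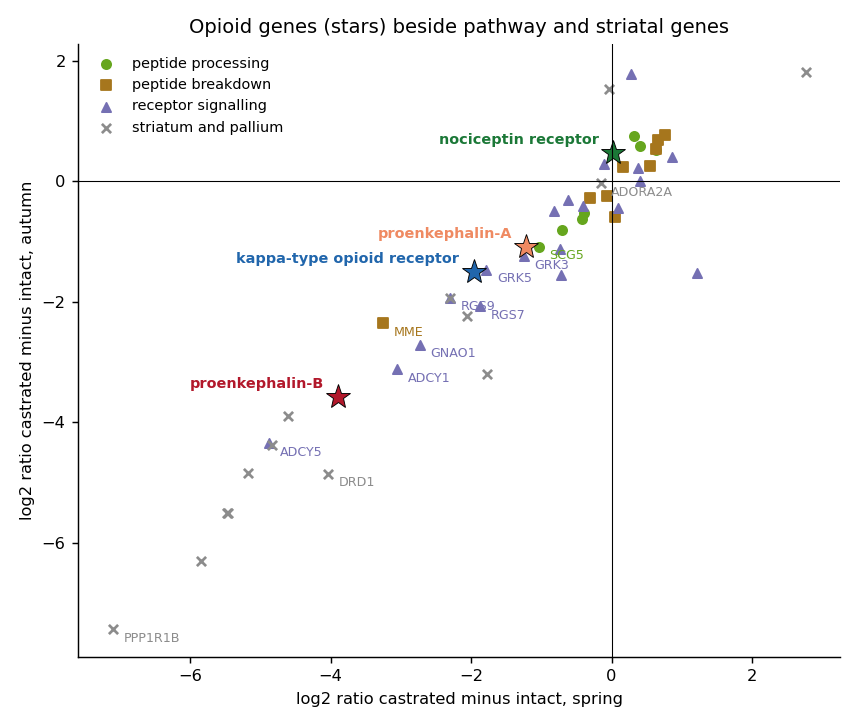
Log2 ratio of CPM, castrated minus intact, in spring (horizontal) and autumn (vertical) for the 4 tested opioid genes (stars), genes of peptide processing, peptide breakdown and receptor signalling, and marker genes of striatum and pallium (crosses). Proenkephalin-B, at -3.89 and -3.58, is the lowest of the opioid genes, and the nociceptin receptor, at 0.02 and 0.46, near the centre.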

How the data were processed

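RNA of 4 libraries, 1 for each group, was analysed; groups were taken from the submitters' group label. Trimmomatic and kallisto are named per the submitters' processing notes. For each contig the authors deposited estimated counts with no normalization, TPM from the same tool, and, as effective and full length, other values per contig. The deposited match list gives an e-value and a bit score for each contig and its percent identity and percent covered; contig names carry the prefix TRINITY, per the deposited files, and for the search tool the sources used here give no name. Each contig kept its match with the highest bit score at an e-value of at most 1e-05, isoform text and the word partial were dropped from names, and estimated counts were summed by name and rounded.

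Matched counts made up 39.1 to 41.7% of each library. TMM factors (trims of 30% of ratios and 5% of levels) were 1.01 and 1.04 (intact, spring before autumn) and 1.03 and 0.925 (castrated). Names with a mean of at least 1 CPM were tested, by a 2-fold rule of size with no p-value for any pair, since each group has 1 library. Because reads lack molecular identifiers they are not independent molecules, and intervals cover counting error only. Ranges for the difference between seasons use a normal approximation to the counts. The additive fit was run in edgeR 4.0.16 (R 4.3.3). Both it and the ratios were also run on simulated data with equal numbers of genes raised and lowered. That is simpler than the imbalance seen here, so those runs do not show how either behaves on these data. Alternatives were DESeq2-style median-of-ratios factors, library totals, totals over all contigs, no filter, an added 0.1 or 2 CPM, summed TPM, matches at 1e-20 and 70% identity, the most abundant contig per name, that additive fit and, added after the data were seen, unmatched contigs with the same assembly gene label. The genes and lists were chosen with earlier results of these data known. Named beside the members are the 5 names with the nearest pattern. Per pathway list, up to 4 genes with the largest smaller castration ratio of like sign are named. Chosen after their values were seen were convertase 1, orexin, NKX2-1 and the striatal and pallial genes set beside the precursors.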

Additional observations from a re-analysis of the deposited data

Results flagged for a closer look

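The contigs without a kept protein match that share the gene label of the mu-type receptor held 5514 estimated counts over the 4 libraries, against 15 on the matched contig. In intact birds they held 2307 (spring) and 1538 (autumn), and in castrated birds 741 and 928, or 316, 208, 106 and 91.9 CPM, all above the 3 counts that a count of 0 allows. They were picked out because this signal lies outside the counts used for the comparisons. Their log2 ratios of castrated to intact were -1.57 in spring and -1.17 in autumn, and those of spring to autumn 0.60 in intact and 0.21 in castrated birds. Whether they belong to the mu-type receptor was not tested. Unmatched contigs held more counts than the matched ones for 9.42% of all names, and at least 100 times as many for 55 names, or 0.461%.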

How the results depend on the processing

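The additive fit called the same 3 and 0 genes as the 2-fold rule. The 16 log2 ratios of the 4 tested genes were recomputed under 10 alternatives, and 148 of the 160 values stayed within the counting interval of the main value. Dropping the filter cannot change these ratios, so its 16 values are among the 148 by construction. No ratio past 2-fold changed sign, and proenkephalin-B, proenkephalin-A and the kappa-type receptor stayed 2-fold or more lower after castration in each season under all 10. Castration ratios in spring lay between -3.97 and -3.74 for proenkephalin-B, -1.99 and -1.67 for the kappa-type receptor and -1.22 and -1.16 for proenkephalin-A. In autumn they lay between -3.97 and -3.39, -1.68 and -1.17, and -1.25 and -1.07. The season ratio of castrated birds changed sign in 1 alternative each for proenkephalin-A and the kappa-type receptor. With no filter the mu-type receptor entered, and 1 gene in place of 0 was 2-fold apart between spring and autumn castrated birds, on 0 and 7 counts. In spring the mu-type receptor was also 2-fold lower after castration (-1.07). The share of all names past 2-fold without the filter was not computed. With unmatched contigs of the same gene label added, the sum under the mu-type receptor's name passed the filter, at -1.57 in spring and -1.16 in autumn. Of its counts 15 lay on the matched contig and 5514 on contigs whose identity was not tested. Both ratios of that sum were past 2-fold. The share of all names 2-fold lower in each season under this setting was not computed. The nociceptin receptor was the most dependent on how contigs were joined: on its most abundant contig alone the autumn castration ratio was 0.13 and the seasonal ratio in castrated birds 0.79. Library totals shifted the median of all names to -0.18 in autumn castration and 0.16 in castrated season ratios. At 15 matched counts in all, differences in the mu-type receptor cannot be resolved. No paired analysis was possible because each group has 1 library and the labels carry no replicate numbers, though the additive fit compares gonadal states within seasons.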

Other observations

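The assembly component of proenkephalin-B holds a further contig of 280 bases with no kept match. It had 197, 176, 7 and 48 estimated counts in intact birds in spring and autumn and in castrated birds in spring and autumn, so that it too was lower in both castrated libraries, with log2 ratios of -4.19 in spring and -2.21 in autumn. The component of the nociceptin receptor holds 5 contigs without a kept match, which summed to 466, 372, 581 and 806 counts, with castration ratios of 0.38 and 0.66. Whether any of these contigs belongs to the gene beside it was not tested.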
